A study of Mus musculus with 2 samples.

Results

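The Rab proteins are the largest branch of the Ras-like small GTPases, and the transcripts of their genes were examined in sensory neurons isolated from dorsal root ganglia (DRGs) of mice. Members were all genes whose symbol is Rab followed by a number and at most a letter and a further digit, so that relatives and partners with other names (Rabl, Rabif, Rabgap1l) were not included. The rule returned 59 genes on 80 RefSeq transcripts, out of 24411 genes on 35034 transcripts, and used no measured value. RNA-seq was performed on 2 libraries, each prepared from the pooled DRG neurons of 10 mice. Male C57BL/6J mice, 6 to 8 weeks old and of no further stated genotype, received intraperitoneal injections on days 0 and 14. The alum-injected group received the adjuvant alum (50%) in saline, and the alum + KLH-immunized group received the same adjuvant and, as a foreign protein antigen, 100 µg of KLH (keyhole limpet hemocyanin) in a volume of 200 µl. Thoracic and lumbar DRGs of both groups were collected on day 28 and enriched for neurons by enzymatic digestion, a density gradient and removal of B lymphocytes on beads. The label of the control library reads both naïve and alum alone, whereas the methods of the study describe sequencing only of alum-injected mice, so it is treated here as alum-injected. With 1 library per group, no difference between the groups has a replicate check and no test was made. Values are TPM, a transcript level scaled to transcript length and to a library total of 1000000, summed over the transcripts of a gene. Ratios are log2 of (TPM + 1) in alum + KLH over (TPM + 1) in alum. They describe 2 pools, in which fewer cells of a type and less RNA per cell cannot be told apart.

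Rab proteins act as membrane-bound switches. Each acts at a particular compartment, where its GTP form engages effectors such as tethers, motors and sorting proteins. Exchange factors load GTP, GTPase-activating proteins (GAPs) end the signal, and the GDP dissociation inhibitors (GDIs) draw the inactive protein back into the cytosol. Membrane binding requires isoprenoid lipids that a prenylating enzyme attaches to cysteines at the carboxyl terminus. In sensory neurons, whose axons reach far from the cell body, Rab proteins are known to serve secretion at both ends of the cell, the return of endosomes carrying growth factor receptors and the turnover of membrane along the axon.

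The prenylated end of the protein is written in the last codons of the gene, and it was read from the GENCODE M21 transcript (mouse assembly GRCm38) of the highest RefSeq transcript of each member. Of the 59 members, 58 had a complete reading frame, of 194 to 725 codons with a median of 215. The highest transcript of the remaining member, Rab43, is noncoding. At least 1 cysteine codon stood among the last 5 in all 58, and at least 2 in 49 of them. In 15 members the coding sequence ended in 2 adjacent cysteine codons, in 19 in 2 cysteine codons with 1 codon between them, in 15 in an adjacent pair followed by 1 to 3 codons, and in 9 in a single cysteine codon followed by 3 others. Below are the last 60 coding bases, 5′ to 3′ with the stop codon, of 4 pairs of paralogs that recur in the results. Each pair holds the more abundant gene first, and capitals mark the cysteine codons.
Rab1: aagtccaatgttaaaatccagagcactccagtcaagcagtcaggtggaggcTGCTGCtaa
Rab1b: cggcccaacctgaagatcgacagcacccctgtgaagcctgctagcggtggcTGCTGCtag
Rab5a: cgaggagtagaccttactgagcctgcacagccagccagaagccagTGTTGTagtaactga
Rab5c: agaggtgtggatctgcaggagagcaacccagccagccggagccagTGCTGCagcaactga
Rab6a: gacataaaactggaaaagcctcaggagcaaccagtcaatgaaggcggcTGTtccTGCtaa
Rab6b: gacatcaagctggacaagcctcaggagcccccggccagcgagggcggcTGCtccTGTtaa
Rab11a: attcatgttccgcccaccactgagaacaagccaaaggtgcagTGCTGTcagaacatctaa
Rab11b: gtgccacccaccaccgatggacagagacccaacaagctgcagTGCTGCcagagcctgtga
Within each pair the cysteine codons stood at the same positions from the end, whereas many of the other bases differed. The pairs also differed in base composition. G or C filled the last position of 46.1% of codons over the whole coding sequence of Rab1 and 68.8% in Rab1b, 31.5% in Rab5a and 64.1% in Rab5c, 47.8% in Rab6a and 72.7% in Rab6b, and 39.6% in Rab11a and 67.6% in Rab11b. The coding sequences of Rab6a and Rab6b have the same length and were 78.5% identical, and 77.0% of their differences fell on the last position of a codon.

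Rab transcripts were abundant in both neuron pools. Of the 59 genes, 44 (74.6%) were above the detection limit of 3 TPM in the alum-injected pool, against 46.9% of all genes, and 43 (72.9%) in the alum + KLH-immunized pool, against 46.3% of all genes. Together they were listed at 9584 TPM in alum and 9928 TPM in alum + KLH, or 0.958% and 0.993% of all transcripts. A few genes held most of this total. Rab6a alone held 15.5% and 16.1%, the top 5 genes 47.9% and 49.3%, and the top 10 genes 71.6% and 72.9% of the Rab TPM in alum and alum + KLH, respectively. Of the 44 genes above 3 TPM in at least 1 library, 11 (25%) had a mean above 300 TPM, compared with 5.76% of all genes above that limit.

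**Figure D1:**
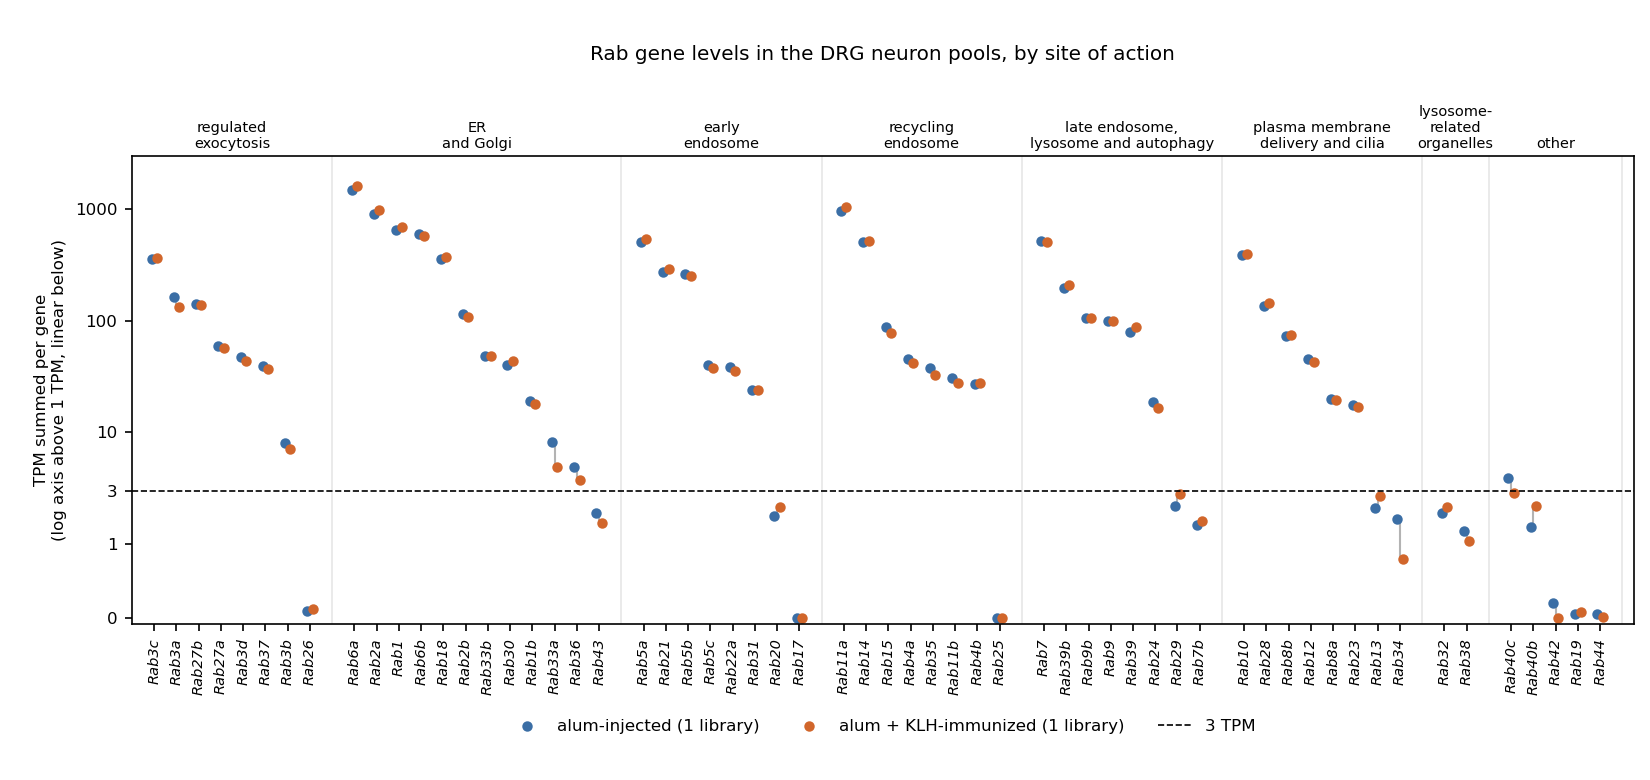
Level of each of the 59 Rab genes (TPM, log axis above 1 TPM and linear below) in both pools (alum-injected and alum + KLH-immunized), grouped by the compartment where the protein is best known to act; the dashed line marks 3 TPM and each point is 1 library. The points of a gene nearly coincide for most genes above 10 TPM, and each of the 6 groups of 8 or more genes holds at least 1 gene above 300 TPM.

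Across the 44 genes the ratio between the pools was small. It ranged from −0.64 to 0.15 on the log2 scale with a median of −0.03, against a median of −0.02 over all 11648 genes above 3 TPM in at least 1 library. The ratio lay within 0.1 of 0 for 26 of the 44 genes and within 0.2 for 40. It was above 0 for 19 genes (43.2%) and below 0 for 25, and 43.6% of all genes had a ratio above 0. No Rab gene was at least 1.5-fold higher in alum + KLH, a mark that 1.00% of all genes reached. One gene, Rab33a, was at least 1.5-fold lower, which is 2.27% of the Rab genes and compares with 1.55% of all genes. The summed Rab TPM was 3.58% higher in alum + KLH. It was 2.33% lower when both libraries were set relative to Hprt, a housekeeping gene that itself was listed at 989 TPM in alum and 1049 TPM in alum + KLH.

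The genes of the endoplasmic reticulum (ER) and Golgi held the largest part of the Rab TPM, 44.1% in alum and 44.95% in alum + KLH. Rab6a, which governs transport at the Golgi and from it toward the ER and the cell surface, was the highest Rab gene, at 1488 TPM in alum and 1603 TPM in alum + KLH (log2 ratio 0.11). Rab2a, which acts between the ER and the Golgi, was listed at 897 and 988 TPM (0.14). Rab1, now called Rab1a and needed for ER-to-Golgi traffic, was at 652 and 699 TPM (0.10). These 3 genes were all higher in the alum + KLH pool, by similar small amounts. Of all genes with a mean above 300 TPM, 61.0% had a ratio above 0. Relative to Hprt the ratios of Rab6a, Rab2a and Rab1 were 0.02, 0.05 and 0.01. Rab6b, the neuron-enriched paralog of Rab6a, was listed at 596 and 569 TPM (−0.07). Rab18, linked to the ER and lipid droplets, was at 357 and 376 TPM (0.07). Among the others of the group, Rab2b was at 114 and 108 TPM, Rab33b at 48.4 and 48.5 TPM, Rab30 at 39.9 and 43.5 TPM, and Rab1b at 19.2 and 17.98 TPM. Of the 12 genes of the group, 11 were above 3 TPM in both pools, 6 of them with a ratio above 0 and 5 below.

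The ratio farthest from 0 of any Rab gene above 3 TPM belonged to Rab33a, an X-linked relative of Rab33b that has been described in axonal vesicle transport (chrX:48513663-48530240, GRCm38.p6, identifier NM_011228). It was listed at 8.11 TPM in alum and 4.87 TPM in alum + KLH, a log2 ratio of −0.64. The gene is thus at the low end of the range, where ratios scatter most. Of all genes with a mean of 3 to 10 TPM, 2.79% were at least 1.5-fold lower and the standard deviation of their ratios was 0.52, compared with 0.17 for genes of 30 to 100 TPM. The other 3 Rab genes with a mean of 3 to 10 TPM also had ratios below 0, and of all genes at that level only 36.2% had a ratio above 0. Rab3b had a ratio of −0.15, Rab36, another Golgi-associated member, was listed at 4.92 and 3.70 TPM (−0.33), and Rab40c, which recruits a ubiquitin ligase through its SOCS box, at 3.90 and 2.85 TPM (−0.35).

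The genes of regulated exocytosis were the group with the most ratios below 0. Its 8 genes summed to 813 TPM in alum and 780 TPM in alum + KLH, a difference of −4.16%. Of the 7 above 3 TPM 1 had a ratio above 0 and 6 below, with a median of −0.10. For comparison, 43.6% of all genes above 3 TPM in at least 1 library had a ratio above 0. Of the 7 recycling endosome genes above 3 TPM, 4 were below 0. With so few genes the count is a description only. Most of the difference in the sum came from Rab3a, and without it the group summed to 651 and 648 TPM, a difference of −0.446%, with 5 of 6 ratios below 0. The 4 Rab3 proteins sit on synaptic and secretory vesicles. The leading Rab3 gene in both pools was Rab3c, at 354 TPM in alum and 367 TPM in alum + KLH (0.05). Rab3a, the main isoform of central synapses, was listed at 163 and 132 TPM (−0.30), the lowest ratio of any Rab gene with a mean above 10 TPM, with its transcripts moving in opposite directions (log2 ratios of −0.88 and 0.21). Rab3d was at 47.4 and 43.4 TPM, and Rab3b at 7.93 and 7.06 TPM. Rab27b and Rab27a, which tether dense-core granules and exosome-forming compartments to the plasma membrane, were at 142 and 137 TPM and at 59.5 and 56.4 TPM. Rab37, also placed on secretory granules, was at 39.5 and 36.8 TPM. Rab26 was far below detection, at 0.09 and 0.12 TPM.

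Among the genes of early and recycling endosomes, those above 300 TPM had ratios of 0.05 to 0.12. At that level 61.0% of all genes had a ratio above 0. Rab5a, which drives fusion of early endosomes, was listed at 509.6 TPM in alum and 539 TPM in alum + KLH (0.08). Rab5b was at 263 and 252 TPM, and Rab5c at 40.2 and 37.5 TPM. Rab21, an early endosomal Rab involved in integrin traffic, was at 271 and 291 TPM (0.10). Rab22a and its close relative Rab31 were lower, at 38.7 and 35.4 TPM and at 23.8 and 24.0 TPM. Among the recycling genes, Rab11a, which returns cargo from recycling endosomes to the surface, was the second highest Rab gene at 954 and 1040.4 TPM (0.12). Rab14, between the trans-Golgi network and endosomes, was at 504 and 521 TPM (0.05). The remaining recycling genes above 3 TPM lay between 26.9 and 87.0 TPM in alum: Rab15 was listed at 87.0 and 77.9 TPM, Rab4a at 44.9 and 41.9 TPM, Rab35 at 37.7 and 32.8 TPM, Rab11b at 30.8 and 27.9 TPM, and Rab4b at 26.9 and 27.4 TPM. The summed TPM of this group was 4.96% higher in alum + KLH although 4 of its 7 genes above 3 TPM had ratios below 0, because Rab11a and Rab14 make up most of the sum.

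The late endosomal and lysosomal genes summed to 1023 TPM in alum and 1029 TPM in alum + KLH. Rab7, the switch of late endosomes and lysosomes and a marker of retrograde signaling endosomes in axons, was listed at 518 and 507 TPM (−0.03). Rab39b, a neuronal Rab connected to autophagy, was at 198 and 207 TPM, and its paralog Rab39 at 79.5 and 88.3 TPM, the highest ratio among Rab genes above 3 TPM (0.15). Rab9b and Rab9, which retrieve receptors from late endosomes to the trans-Golgi network, were at 105 and 105 TPM and at 100.3 and 99.3 TPM. Rab24 was at 18.6 and 16.6 TPM. Among genes of delivery to the plasma membrane and of cilia, Rab10, which carries membrane to the surface and into growing axons, was at 385 and 397 TPM (0.04). Rab28 was at 135 and 145 TPM, Rab8b at 73.1 and 74.6 TPM, Rab12 at 45.4 and 42.4 TPM, Rab8a at 20.0 and 19.6 TPM, and Rab23, an antagonist of Hedgehog signaling, at 17.4 and 16.9 TPM.

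The 15 genes below 3 TPM in both pools include several that are best known from other cell types. Rab17 and Rab25, the Rab genes of polarized epithelia, were listed at 0 TPM in both libraries. Rab32 and Rab38, which build melanosomes and other lysosome-related organelles, were at 1.89 and 2.14 TPM and at 1.30 and 1.05 TPM. Rab20 and Rab7b, both studied in macrophages, were at 1.76 and 2.15 TPM and at 1.47 and 1.61 TPM. Rab29 was at 2.18 and 2.82 TPM, Rab13 at 2.09 and 2.70 TPM, Rab34 at 1.66 and 0.80 TPM, and Rab40b at 1.40 and 2.17 TPM. Rab42, Rab26, Rab44 and Rab19 were at or below 0.202 TPM in both libraries. Rab43 was at 1.87 and 1.54 TPM. Its highest transcript, which is noncoding, was listed at 1.87 and 0.89 TPM. The coding transcripts NM_001039394 and NM_133717 were at 0 in alum and at 0.13 and 0.52 TPM in alum + KLH. Of the 31-base words of the highest Rab43 transcript, 95.7% also occur in annotated transcripts of another gene. The value of Rab43 is therefore uncertain.

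The upstream sequences of the highest member and of both members listed at 0 are shown for their CG content. RefSeq windows (GRCm38.p6) matched 48 of the 59 members, with 60 windows in all. Where a gene had several windows, for different starts, the one with the most CG was kept, for Rab genes and all others alike. The counts are thus the highest over the starts of a gene, and a window may lie inside the gene. The 250 bases before the start are given 5′ to 3′ on the gene's strand, with each CG in capitals.
Rab6a, chr7:100607336-100607585, plus strand: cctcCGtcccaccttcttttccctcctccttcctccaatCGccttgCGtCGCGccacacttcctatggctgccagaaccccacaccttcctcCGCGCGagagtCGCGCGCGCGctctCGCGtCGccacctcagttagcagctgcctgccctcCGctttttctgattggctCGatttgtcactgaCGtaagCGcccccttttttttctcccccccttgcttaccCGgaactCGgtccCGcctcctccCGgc
Rab17, chr1:90967668-90967917, minus strand: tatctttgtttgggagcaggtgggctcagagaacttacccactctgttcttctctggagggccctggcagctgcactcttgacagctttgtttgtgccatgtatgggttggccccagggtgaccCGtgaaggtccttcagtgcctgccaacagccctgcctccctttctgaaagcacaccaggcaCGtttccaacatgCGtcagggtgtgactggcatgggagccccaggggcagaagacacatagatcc
Rab25, chr3:88548280-88548529, minus strand: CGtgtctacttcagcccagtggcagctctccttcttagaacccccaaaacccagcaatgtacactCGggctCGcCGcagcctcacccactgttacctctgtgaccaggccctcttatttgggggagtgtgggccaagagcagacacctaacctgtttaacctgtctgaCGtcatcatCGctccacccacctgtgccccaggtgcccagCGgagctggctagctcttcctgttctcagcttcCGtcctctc
The Rab6a window held 24 CG, the Rab25 window 8 and the Rab17 window 3. Windows with at least 10 CG were found for 31 of the 37 Rab genes above 3 TPM that have one (83.8%), against 78.5% of 9020 genes above 3 TPM and 53.0% of all 18128 genes with a window. Level and CG count did not go together in every member. Rab39b and Rab9, at 100.3 TPM or more in alum, had 8 and 7 CG. Rab3c had 7, in a window that lies inside the gene. Rab43, Rab13 and Rab34, below 3 TPM, had 21, 20 and 19. Their windows precede starts whose transcripts were listed at 0 in alum. For these genes the CG count and the alum level thus come from different starts. The count is of the letters CG only, and CG pairs read the same on both strands. Of the 15 Rab genes below 3 TPM only 11 had a window, of which 5 held at least 10 CG. This is too incomplete for a comparison.

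Among paralogs 1 gene usually dominated, and the order was the same in both pools. Rab1 held 97.1% of the Rab1 pair in alum and 97.5% in alum + KLH, Rab11a 96.9% and 97.4% of the Rab11 pair, Rab7 99.7% in both, and Rab2a 88.7% and 90.2% of the Rab2 pair. Rab6a held 71.4% and 73.8% of the Rab6 pair, and Rab5a 62.7% and 65.1% of the Rab5 trio. Rab8b exceeded Rab8a with 78.5% and 79.2%, Rab27b exceeded Rab27a with 70.5% and 70.8%, Rab33b exceeded Rab33a with 85.6% and 90.9%, and Rab39b exceeded Rab39 with 71.4% and 70.1%. The Rab9 pair was the most even, with 51.1% and 51.5% for Rab9b. Rab3c took 61.9% of the Rab3 genes in alum and 66.8% in alum + KLH, while Rab3a took 28.5% and 24.0%. Rab4a held 62.5% and 60.5% and Rab22a 61.9% and 59.6% of their pairs. The Rab40 pair lay near the detection limit, and Rab40c held 73.6% and 56.9% of it.

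**Figure D2:**
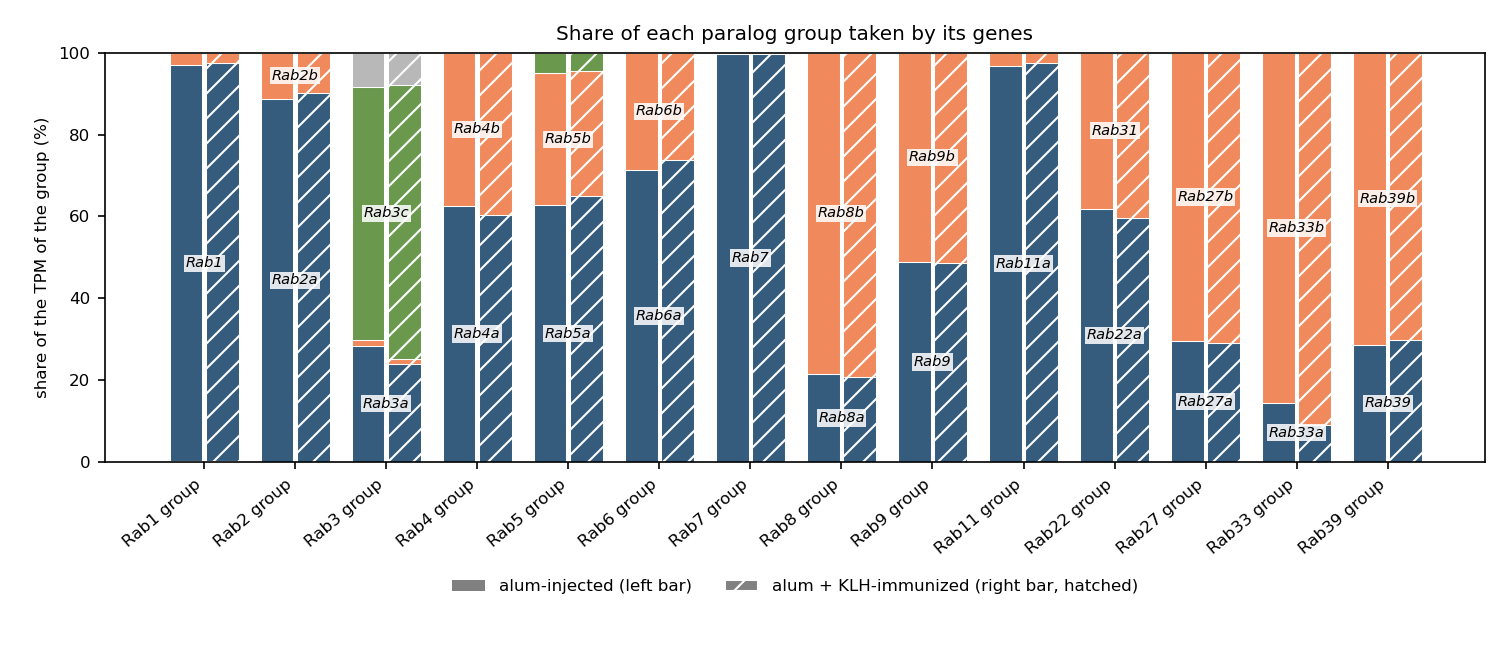
Share of the summed TPM of each paralog group (%) taken by its genes, stacked from 0 to 100 in the alum-injected pool (left bar) and the alum + KLH-immunized pool (right, hatched bar); unlabelled slices are Rab1b, Rab3b (thin slice above Rab3a), Rab3d (grey), Rab5c (green), Rab7b and Rab11b. Among the groups drawn, the shares shift most in the Rab33 pair, with 85.6% and 90.9% Rab33b, and in the Rab3 group, with 61.9% and 66.8% Rab3c; the Rab32 and Rab40 pairs, near or below 3 TPM, are not drawn.

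The ratio between the pools moved with the base composition of the transcripts. Over the 44 Rab genes above 3 TPM, Spearman's rho between the GC content of the highest transcript and the log2 ratio was −0.78 (Pearson's r −0.67). All 44 points come from the same pair of libraries, and genes are not independent replicates. Of the 5 genes at or below 40% GC 4 had a ratio above 0, as did all 11 genes of 40 to 45%, 3 of 14 genes of 45 to 50%, and 1 of 14 genes above 50%, which was Rab4b. The same trend was present over all genes: rho was −0.46 over 11452 genes, and the share with a ratio above 0 was 78.7%, 63.8%, 49.0% and 24.2% in these GC ranges. The abundant Rab genes are low in GC, with a rho of −0.60 between GC and mean level over the 44 genes and −0.33 over all genes. Level also moved with the ratio, with a rho of 0.67 over the Rab genes and 0.18 over all genes. Of the 11 Rab genes above 300 TPM, 9 (81.8%) had a ratio above 0, compared with 61.0% of all genes at that level.

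**Figure D3:**
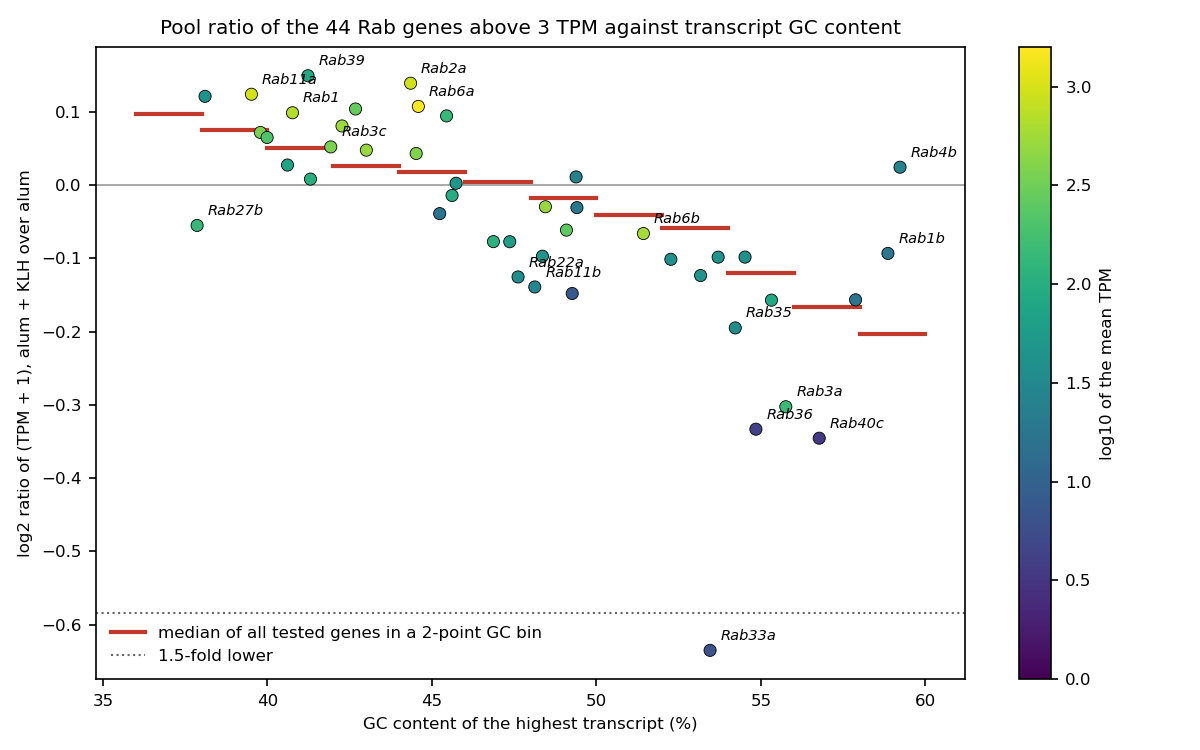
log2 ratio of (TPM + 1), alum + KLH over alum, of the 44 Rab genes above 3 TPM in at least 1 library against the GC content of the highest transcript (%), coloured by log10 of the mean TPM; red bars are medians of all genes in 2-point GC bins and the dotted line marks 1.5-fold lower. The Rab genes slope downward with GC as the red bars do, and Rab33a lies below the dotted line.

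Most pairs of paralogs followed the trend within families. In 16 of 20 pairs, from 13 groups, the gene with the lower GC content had the higher ratio, and the 4 pairs printed above are among them. The pairs are not independent, since each Rab3 and Rab5 gene stands in more than a single pair. The trend was present over all genes (rho −0.46), and the share for pairs of other genes was not computed. Rab6a has a GC content of 44.6% over the whole transcript and Rab6b 51.4%, and their ratios were 0.11 and −0.07. Rab11a has 39.5% and Rab11b 48.1%, with ratios of 0.12 and −0.14. Rab1 has 40.8% and Rab1b 58.9%, with ratios of 0.10 and −0.09. Rab5a has 42.3% and Rab5c 54.5%, with ratios of 0.08 and −0.10. The 4 pairs with the opposite order were Rab3b and Rab3d, Rab4a and Rab4b, Rab22a and Rab31, and Rab39b and Rab39. When the median ratio of all genes in the same 2-point GC bin was subtracted, the Rab genes ranged from −0.58 to 0.23 with a median of −0.02, 17 of 44 lay above 0, and rho with GC was −0.30. No Rab gene then reached 1.5-fold in either direction, and Rab33a had the lowest value, −0.58. Rab3a, at 55.8% GC, moved from −0.30 to −0.18, and Rab2a from 0.14 to 0.12. What accounts for the GC trend was not tested.

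More single transcripts than genes reached the 1.5-fold mark. Of the 80 Rab transcripts, 55 were above 3 TPM in at least 1 library. At least 1.5-fold higher in alum + KLH were 2 of them, against 3.50% of all transcripts above that limit, and at least 1.5-fold lower were 3, against 5.01%. The higher ones were Rab27a NM_001301230, listed at 0 in alum and at 3.24 TPM in alum + KLH, and Rab18 NM_001278447, at 3.08 and 5.24 TPM. The lower ones were Rab27b NM_001302799, at 5.93 and 3.57 TPM, the single transcript of Rab33a, and Rab3a NM_009001. This last one was listed at 91.5 TPM in alum and 49.4 TPM in alum + KLH (−0.88), while the other Rab3a transcript, NM_001166399, was at 71.2 and 82.4 TPM (0.21). Its share of the Rab3a TPM was thus 43.8% in alum and 62.5% in alum + KLH. GENCODE M21 ties both identifiers to the same transcripts, so no sequence that separates them is shown, and division of reads between them by the authors' program is uncertain. The same limit holds for Rab27b NM_001302799, which is tied with NM_030554, listed at 0 in both pools. It also holds for Rab27a NM_001301232 and NM_023635.

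In the other genes with several transcripts above 3 TPM the leading transcript was the same in both pools. Rab7 NM_001293653 was listed at 430.4 and 429.5 TPM, 83.1% and 84.6% of the Rab7 TPM, and NM_009005 at 80.7 and 72.1 TPM. Their annotated transcripts have the same coding sequence, and 3.95% and 3.01% of their 31-base words are absent from the other Rab7 transcripts. Rab6a NM_024287 was at 1464 and 1582 TPM, and NM_001163663 at 24.0 and 21.4 TPM. Between genes, reads were better separated. Of the 59 members, 29 share no 31-base word with annotated transcripts of other genes, 7 share over 10%, and no member shares over 1% with another Rab gene. Besides Rab43, the largest overlaps were 82.3% for Rab4b, with a gene model that overlaps it on the same strand, and 18.9% for Rab7, with a pseudogene, so their values carry that uncertainty.

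**Figure D4:**
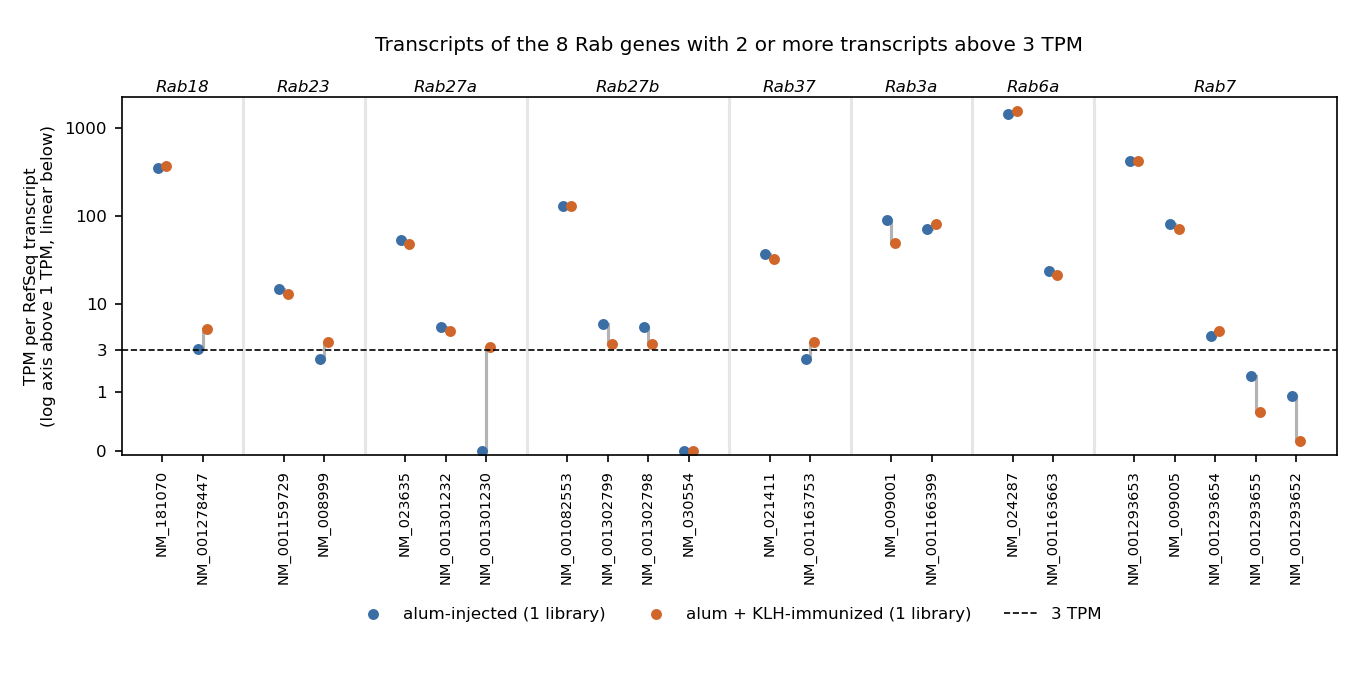
Level of each RefSeq transcript (TPM, log axis above 1 TPM and linear below) of the 8 Rab genes with at least 2 transcripts above 3 TPM, in both pools (alum-injected in blue, alum + KLH-immunized in orange); each point is 1 library and the dashed line marks 3 TPM. The leading transcript is the same in both pools in each gene except Rab3a, where NM_009001 is at 91.5 and 49.4 TPM and NM_001166399 at 71.2 and 82.4 TPM.

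The partners of the Rab proteins were present in both pools, with ratios as close to 0 as those of most Rab genes. Of 129 listed genes, 96 were above 3 TPM in at least 1 library. Their ratios ranged from −0.43 to 0.16 with a median of −0.02. Of these ratios 37 were above 0 and 59 below, and 43.6% of all genes had a ratio above 0. None of the partner genes reached 1.5-fold in either direction. Of all genes, only 1.00% were at least 1.5-fold higher and 1.55% lower, so few were to be reached among 96. When only the highest transcript of each gene was used, 1 partner gene was at least 1.5-fold lower. All 7 genes of GDI and prenylation were above 3 TPM. Gdi2, the ubiquitous GDI, was listed at 1220.3 and 1278 TPM (0.07). Rabggtb, the catalytic subunit of the prenylating enzyme, was at 113 and 111 TPM. Of 33 exchange factors 22 were above 3 TPM, with a median ratio of −0.02, led by Ccz1, part of the Rab7 exchange factor, at 89.5 and 84.8 TPM, by Dennd4a at 85.2 and 87.3 TPM, and by Rabgef1, which acts on Rab5, at 55.2 and 55.0 TPM. Of 36 GAPs 30 were above 3 TPM, with a median of −0.04, led by Rabgap1l at 239 and 236 TPM, Evi5 at 169 and 169 TPM and Tbc1d9 at 114 and 122 TPM. Of 53 effectors 37 were above 3 TPM, with a median of −0.02. Rufy3 was the highest at 911 and 905 TPM, followed by Osbpl1a, a Rab7 partner, at 174 and 192 TPM and Sytl2, a Rab27 effector, at 166 and 163 TPM.

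The neuronal label was checked with marker lists. All 9 pan-neuronal genes were above 3 TPM, from 60.8 to 5259 TPM in alum and from 44.6 to 5048 TPM in alum + KLH. Glial transcripts were also present. All 6 satellite glia genes were above 3 TPM and summed to 1480 TPM in alum and 1365 TPM in alum + KLH, a difference of −7.79%, and 5 of 7 Schwann cell genes were above 3 TPM, with list sums of 2171 and 2131 TPM. Of 8 macrophage genes 1 was above 3 TPM, at 3.90 and 3.86 TPM, and of 5 endothelial genes 1 was. No B lymphocyte gene of 6 was above 3 TPM in either pool, and Cd79b was listed at 0 in both. T lymphocyte genes summed to 4.74 and 4.61 TPM. Of these only Cd3d passed 3 TPM, at 2.97 TPM in alum and 3.13 TPM in alum + KLH. Melanocyte genes summed to 14.1 and 13.7 TPM. Tyr was at 6.02 and 6.00 TPM and Tyrp1 at 7.99 and 7.55 TPM, whereas Mlana and Dct were listed at 0 in both. S100a8 and S100a9, on the list of mast cell and granulocyte genes, differed between the pools. S100a8 was at 32.3 TPM in alum and 4.59 TPM in alum + KLH, and S100a9 at 11.7 and 0.96 TPM. Kit, on the same list, was at 58.1 and 56.2 TPM. Many Rab genes are active in most cell types, and the part of other cells in their levels was not tested.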

How the data were processed

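Stranded mRNA libraries were sequenced as paired ends, trimmed with cutadapt and quantified with kallisto on mouse assembly mm10 by the authors, without discovery of new transcripts. Each library's deposited table gives the TPM of each RefSeq transcript. The methods of the study state a minimum read depth for all libraries, but TPM do not hold the reads behind each value, so no counting interval is given. From these tables the TPM of all transcripts of a gene were summed, and log2 ratios were formed after addition of 1 TPM for the 11648 genes above 3 TPM in at least 1 library. With 1 library per group no test was run, and folds of 1.5 are marks of size. The members and the lists of compartments, paralogs, partners and cell markers were chosen with earlier results of these data known. All members could be named, with values for the 12 highest, those at 1.5-fold, those of paralog groups and those below 3 TPM in both; of the partners, the 3 highest of each group, 1 of which is not reported here; of transcripts, genes with at least 2 above 3 TPM. GC content and coding ends came from GENCODE M21 transcripts, matched by RefSeq identifier for all 59 members. Positions and upstream windows came from RefSeq GRCm38.p6. Alternatives were the highest transcript per gene, rescaling by the median ratio or to Hprt, pseudocounts of 0.1 and 0.5 TPM, filters of none and 10 TPM, detection at 1 and 10 TPM, a lower and a higher fold limit and, added after the data were seen, subtraction of GC bin medians, the exocytosis sum without Rab3a and the alternatives for partner genes. The calculation of ratios was checked on simulated data. Python 3.11.15, numpy 2.4.6, pandas 2.3.3 and matplotlib 3.10.9 were used.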

Additional observations from a re-analysis of the deposited data

How the results depend on the processing

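No paired analysis was possible because each group holds 1 library. Of 41 alternatives to the 6 summary values, 4 moved a count by more than 1.5 times. All 4 concerned the number of Rab genes at least 1.5-fold lower in alum + KLH, which was 1 (Rab33a) and became 0 with a filter of 10 TPM, 0 at a fold of 2, 3 at a limit midway between 1 and 1.5 and 0 after the GC bin medians were subtracted. The first of these leaves Rab33a out by construction. The number at least 1.5-fold higher was 0 under all 10 alternatives. The summed Rab TPM was 3.58% higher in alum + KLH, 3.995% with the highest transcript of each gene and 4.95% after rescaling by the median ratio, but 2.33% lower (−2.33%) relative to Hprt, which turned the sign of 11 gene ratios and gave a median ratio of −0.12. Subtracting the GC bin medians turned the sign of 8. The number of partner genes at least 1.5-fold lower was 0 and became 1 with the highest transcript of each gene and 1 at the limit midway between 1 and 1.5. Detection at 1 TPM found 53 Rab genes in alum and 52 in alum + KLH, and detection at 10 TPM found 40 in each. The ratio of Rab3a was −0.15 with its highest transcript alone, since that transcript differs between the libraries. What depth limits for each gene was not computed, because TPM do not hold the reads behind a value.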
